A study of Mus musculus with 201 samples.

Results

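Potassium channel genes were taken as all gene symbols that begin with Kcn, followed by lower-case letters and a digit. The rule matched 98 symbols in each deposited table, of 42790 symbols for whole cells, 42802 for nuclei from the new environment (NE) and 42774 for home-cage (HC) nuclei. Of these, 93 encode channel subunits and 5 are antisense or overlapping transcripts named after a channel gene (*Kcnab3os*, *Kcnd3os*, *Kcnmb4os1*, *Kcnmb4os2* and *Kcnq1ot1*).

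The study sequenced the RNA of single dentate granule cells (DGCs) of the mouse hippocampus, 1 cell or nucleus per library. Whole cells and NE nuclei were amplified with the Smart-seq2 protocol, and HC nuclei on the Fluidigm C1, a microfluidic platform. Whole cells came from Prox1-GFP mice 1 h after an injection of saline or of 50 mg per kg pentylenetetrazole (PTZ), a convulsant that blocks GABA-A receptors, and were dissociated with protease and sorted as GFP+. Nuclei came from C57BL/6 mice, described in the methods as wild-type females of 8 weeks. The NE mouse spent 15 min in a new cage and 1 h back in its own, and its nuclei were sorted for PROX1 and then as FOS+ or FOS- by staining for the FOS protein. HC nuclei came from a mouse left in its cage. They are labelled NeuN+/Prox1+, and the methods describe scoring both stains by imaging on the C1 chip. By the study's results section, the whole cells of each treatment were pooled from 2 mice. It writes of the NE and the HC mouse in the singular, but of mice in the plural where it describes the exposure. After 2 quality criteria, the NE nuclei described were 40 of 48 (FOS+) and 41 of 48 (FOS-), and the cells were 30 of 35 (PTZ) and 38 of 47 (saline). The criteria were not applied to the HC nuclei, of which all 23 were used.

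Potassium channels let K+ leave the neuron and so set its resting potential, end its action potentials and space its spikes. Voltage-gated (Kv) pores open on depolarization, inward rectifiers and two-pore domain channels act near rest, and calcium-activated channels follow calcium entry. Silent Kv subunits form no channel alone but join Kv2 pores, and auxiliary subunits alter the gating and the transport of pores. Mature DGCs are known for a very negative resting potential and sparse firing, to which inward rectifier and leak channels contribute.

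The total expected count per library was 67212 at the lowest in PTZ cells and 63775 at the lowest in NE nuclei, with medians of 1.09e+06 in PTZ cells, 975934 in saline cells, 269061 in FOS+, 214421 in FOS- and 165926 in HC nuclei. *Prox1*, which the study used to mark DGCs, was detected in 30 of 30 PTZ and 38 of 38 saline cells. Among nuclei it was detected in 33 of 40 FOS+, 34 of 41 FOS- and 14 of 23 HC nuclei. All 8 granule neuron markers appeared in every group. A gene counts as detected at a TPM (the level of a transcript per length and per library) above 1. Some libraries stood apart by criteria chosen after the data were seen. In PTZ cells, 4 held over 10000 detected genes and 2 had a higher summed TPM of another cell type's markers than of granule neuron markers (the pyramidal neuron and the astrocyte list). The same held for 1 saline cell, 1 FOS- nucleus and 4 HC nuclei, while 1 FOS+ nucleus had under 2000 detected genes. Results that change without them are given both ways. The labels tie no cell to an animal, and cells of 1 animal or pool are not replicates, so each group counts as 1 sample. No test was made, SDs describe the spread over cells, and intervals cover counting error only.

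Whole DGCs held a broad set of potassium channel transcripts. In the 68 cells, 77 of 98 genes were detected at least once and 23 in at least 50% of cells. In the 81 NE nuclei these counts were 80 and 21, and in the 23 HC nuclei 44 and 8. A single cell held 23.0 ± 10.4 (SD over 30 cells) channel subunit genes after PTZ and 24.3 ± 6.69 (n = 38) after saline. Without the libraries that stood apart these were 20.5 ± 6.72 (n = 24) and 24.7 ± 6.28 (n = 37). FOS+ nuclei held 22.8 ± 5.85 (n = 40), FOS- nuclei 20.9 ± 6.25 (n = 41) and HC nuclei 11.3 ± 3.37 (n = 23). The number followed how many genes of any kind a cell yielded. Spearman's rho between the 2 numbers was 0.807 in PTZ and 0.672 in saline cells, 0.873 in FOS+, 0.791 in FOS- and 0.627 in HC nuclei, as a description of points that share a library and its depth. Cells with 10244 to 12220 detected genes, all 4 from PTZ mice, stood at the top of this relation.

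**Figure D1:**
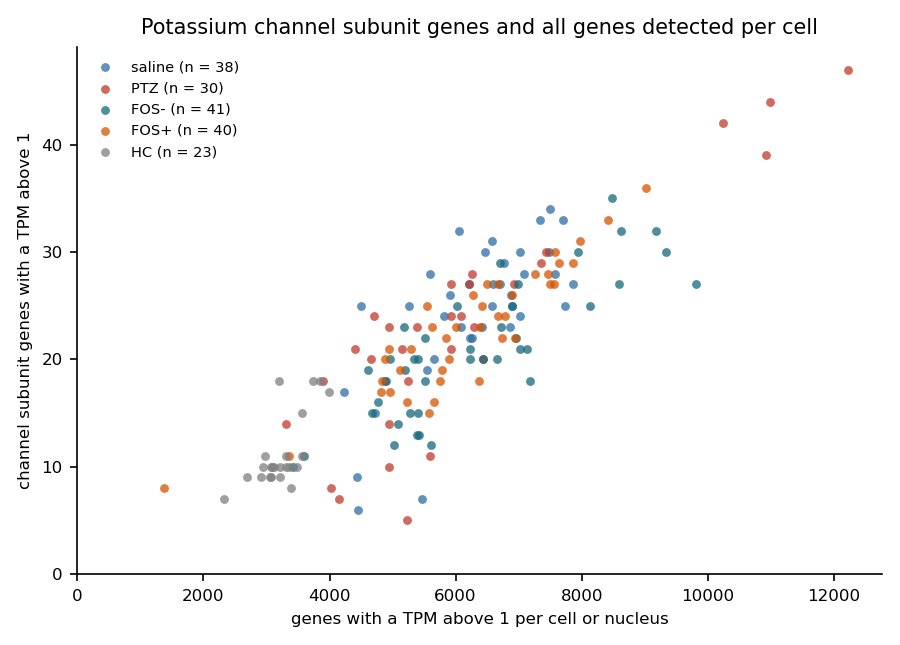
Each point is a cell or nucleus, with the number of genes at a TPM above 1 on the x axis and the number of potassium channel subunit genes at a TPM above 1 on the y axis, coloured by group. Subunit genes increase with genes detected in each group, the HC nuclei lie at the lower left with 7 to 18 subunit genes, and the PTZ cells span 5 to 47.

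The two-pore domain gene *Kcnk1*, a background leak channel, led the whole cells. It was detected in 64 of 68 cells (94.1%, exact Clopper-Pearson 95% interval 85.6 to 98.4%), with a mean log2(TPM + 1) of 7.10 ± 2.23 and a mean TPM of 254. Its TPM reached 881 in PTZ cells around a median of 168, and 1352 in saline cells around a median of 200. *Kcnk1* was the most abundant channel transcript in 12 of 30 PTZ and 13 of 38 saline cells. No other two-pore gene reached 50% of whole cells. The acid-sensitive leak gene *Kcnk9* was detected in 1 PTZ and 3 saline cells.

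Of the inward rectifiers, those that open on G-protein signalling led, with *Kcnj3* at a mean log2(TPM + 1) of 5.16 over whole cells, *Kcnj9* at 4.38 and *Kcnj6* at 3.61. They encode subunits that assemble with one another. *Kcnj3* was detected in 25 of 30 PTZ and 33 of 38 saline cells, and *Kcnj6* in 24 and 29. The strong inward rectifiers *Kcnj2* and *Kcnj4*, which conduct without a G protein, were found in fewer cells. *Kcnj4* was detected in 12 PTZ and 20 saline cells and *Kcnj2* in 5 and 10. Of the ATP-sensitive subunit genes, *Kcnj8* was detected in no library and *Kcnj11* in 7 PTZ and 4 saline cells.

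Among voltage-gated pores, a few genes led in whole cells. *Kcna1*, a low-threshold axonal Kv1 pore, had a mean log2(TPM + 1) of 4.53, and *Kcnd2*, the dendritic A-type Kv4 pore, had 4.41. The A-type Kv4 pore *Kcnd3* was detected in 17 of 30 PTZ and 24 of 38 saline cells, and the Kv3 pore *Kcnc1*, of a family known for fast repolarization, in 20 and 25. By family, 2 of 8 Kv1 genes, 2 of 3 Kv4, none of 2 Kv2 and none of 8 ether-a-go-go (EAG) genes were in at least 50% of whole cells. *Kcng1*, a silent subunit, was the only one of 10 silent Kv genes above 50% in whole cells, at a mean log2(TPM + 1) of 3.68. *Kcng3*, another silent subunit, was detected in 1 saline cell and 3 FOS- nuclei, and in none of the PTZ, FOS+ and HC libraries.

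Auxiliary subunit genes stood among the leading genes. *Kcnab2* and *Kcnab1*, beta subunits of Kv1 channels, had mean log2(TPM + 1) values of 5.32 and 4.64 in whole cells. The KChIP genes *Kcnip2*, *Kcnip4* and *Kcnip3*, whose products bind Kv4 pores, stood at 5.10, 4.46 and 3.42. By contrast, 4 of the 5 single-pass KCNE genes (*Kcne1* to *Kcne4*) were detected in no library. The pore of the large-conductance calcium-activated (BK) channel, *Kcnma1*, had a mean log2(TPM + 1) of 4.14 and was detected in 23 of 30 PTZ and 31 of 38 saline cells. In all, 13 genes were never above a TPM of 1 in any of the 172 libraries described. Beside *Kcnj8* and the 4 KCNE genes these were *Kcna10*, *Kcng4*, *Kcnk5*, *Kcnk7*, *Kcnk16*, *Kcnk18*, *Kcnn4* and *Kcnv2*.

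NE nuclei had another order at the top. *Kcnq1ot1*, a long non-coding RNA antisense to *Kcnq1* that acts in the nucleus, led with a mean log2(TPM + 1) of 5.98 ± 0.81 and was detected in 98.8% of 81 nuclei. The libraries keep no strand, so its reads and those of *Kcnq1* cannot be told apart, although *Kcnq1* itself was listed above a TPM of 1 in 1 FOS+ nucleus and in no other library. The BK beta subunit gene *Kcnmb4* followed at 5.68 ± 2.31, in 91.4% of nuclei, and *Kcna1* and *Kcnma1* at 5.25 and 5.13. *Kcnq3*, a pore gene of the M-current, was detected in 96.3% of nuclei, the highest share of a subunit gene, at 4.27 ± 1.75. Other leaders were *Kcnip2* (4.23), *Kcnj6* (3.94), *Kcnd2* (3.93), *Kcnab2* (3.78), the Kv3 pore *Kcnc1* (3.50), *Kcnq5* (3.32), *Kcnk1* (3.10) and *Kcnj3* (3.09), all as mean log2(TPM + 1).

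Of the 15 leading genes of whole cells, 10 were among the 15 leading genes of NE nuclei, and *Kcna1*, *Kcnip2*, *Kcnj3*, *Kcnk1* and *Kcnma1* were among the leaders of all 3 tables. In HC nuclei, *Kcnq1ot1* stood at 5.67, *Kcnj3* at 3.53 and *Kcna1* at 3.11. The rank correlation of mean levels was 0.760 between whole cells and NE nuclei over 85 genes, 0.697 between whole cells and HC nuclei over 79, and 0.807 between NE and HC nuclei over 80. These are descriptions across genes, which are not independent. The tables were made separately, so levels in different tables stand side by side and were not compared as differences.

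**Figure D2:**
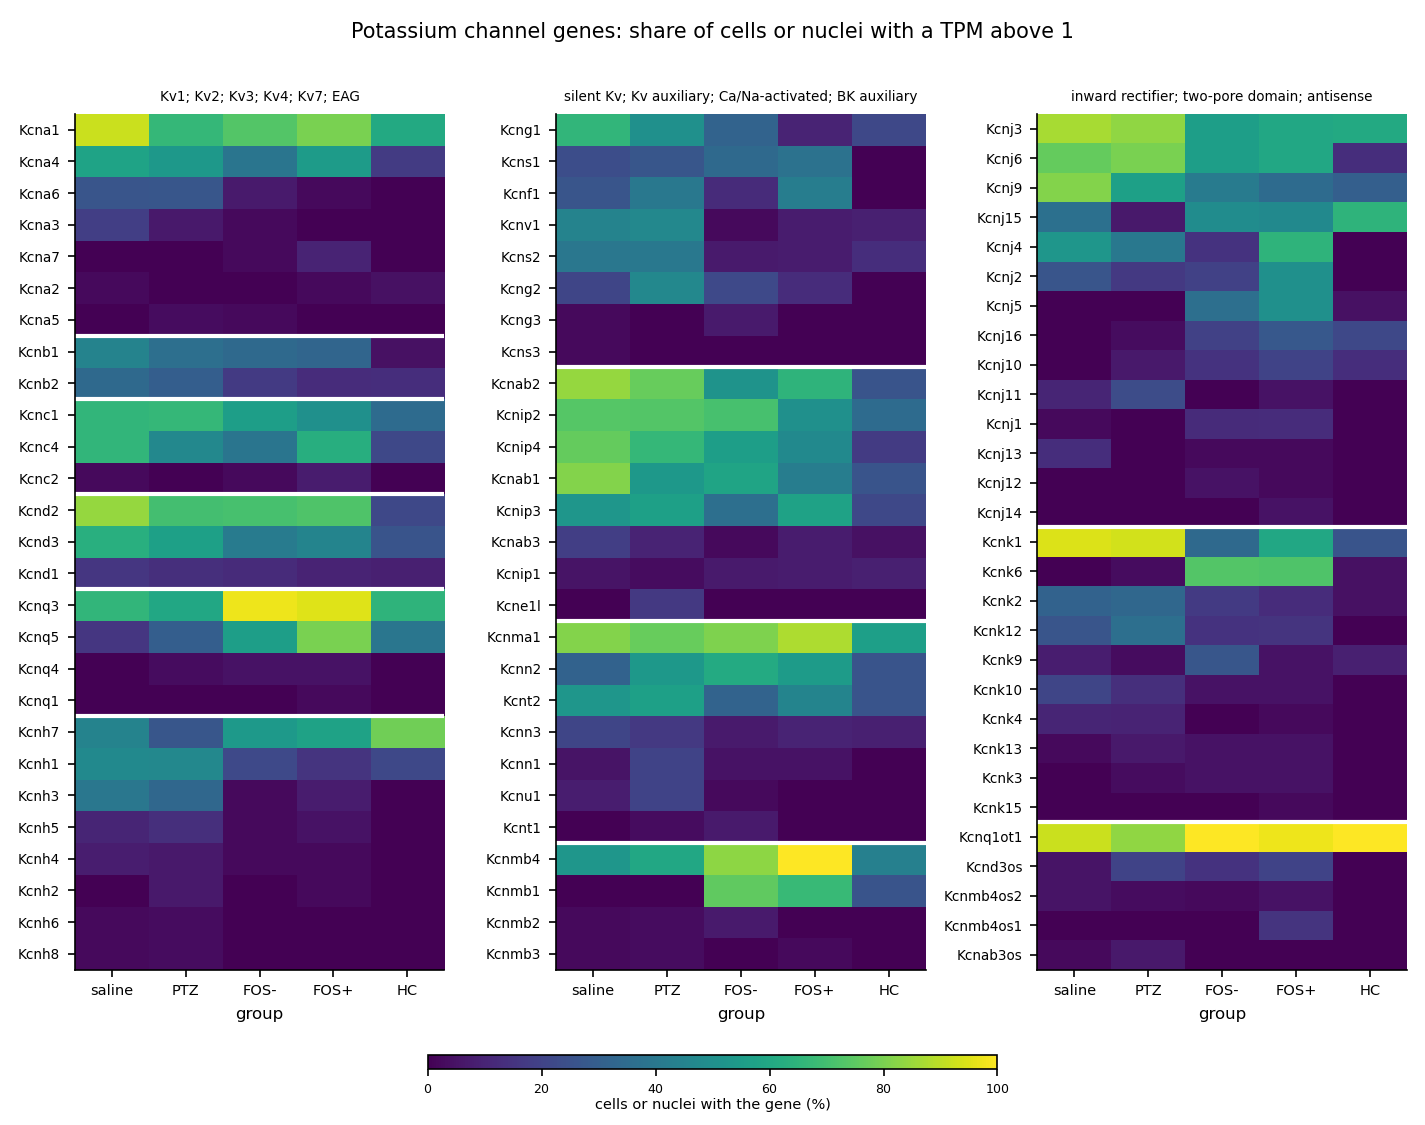
Each row is a reported potassium channel gene detected in at least 1 library and each column a group, with the percent of its cells or nuclei at a TPM above 1 as colour; white lines part the families named above each panel. *Kcnk1* is bright in both whole-cell groups, and *Kcnq3*, *Kcnmb4* and *Kcnq1ot1* are bright in both NE groups. *Kcnj4*, *Kcnj2* and *Kcnf1* are brighter in FOS+ than in FOS- and dark in HC nuclei, which are shallower and from another platform.

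On average, nuclei with the FOS protein held more transcript of 8 channel genes, among them the inward rectifiers *Kcnj4* and *Kcnj2* and the leak channel *Kcnk1*. Of these 8, *Kcna1* and *Kcnc4* stood below 0 in 1 amplification condition. Means were lower for *Kcnip2*, *Kcng1* and *Kcnk9*. However, the sign of *Kcnip2* differed between conditions, and *Kcnk9* lost its call without any 1 of 4 FOS- nuclei. A gene was called when the difference in mean log2(TPM + 1) was at least 1, among genes above a TPM of 1 in at least 5 nuclei of both groups together. Of the 51 members compared, 8 were called higher (15.7%) and 4 lower (7.84%), against 5.84% and 8.01% of all 16387 features compared. The share called lower was thus no larger than that of all features. With the same sign also required within each of the 4 amplification conditions, 6 members were higher (11.8%) and 2 lower (3.92%), against 3.47% and 4.38% of all features. The members' differences centred near 0, with 27 above and 24 below it, 28 within 0.5 of it, and a median of 0.04 beside -0.09 for all features. All 6 activity markers, immediate early genes such as *Fos* and *Arc*, were higher in FOS+, a sort made on the FOS protein itself. Of the granule neuron markers, 2 of 8 were lower in FOS+ (median difference -0.28), with medians of their summed TPM of 4539 and 6694, and 1 of 4 interneuron markers compared was higher. Their part in the channel genes was not tested. FOS+ and FOS- nuclei had 6185 ± 1398 and 6281 ± 1539 detected genes.

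The strong inward rectifier *Kcnj4* had the largest difference of the members compared. Its TPM ran from 0 through a median of 21.1 to 404 in FOS+ nuclei and from 0 through a median of 0 to 104 in FOS- nuclei. It was detected in 26 of 40 FOS+ nuclei, 6 of 41 FOS- nuclei and none of 23 HC nuclei (upper 95% limit 14.8%). Since HC nuclei were shallower and made on another platform, their shares here and below stand beside the others and were not compared. The FOS+ and FOS- groups overlapped, since the remaining FOS+ nuclei also lacked *Kcnj4*. The means were 3.52 ± 3.01 and 0.79 ± 1.92, a difference of 2.73, and within the conditions it was 4.72, 3.21, 1.37 and 1.83. Over summed counts, *Kcnj4* made up 76.5 CPM (the count relative to the summed totals of the group) in FOS+ (Poisson 95% interval 72.1 to 81.2) and 4.87 in FOS- (3.78 to 6.17).

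*Kcnj2*, which encodes a related strong inward rectifier, showed a similar pattern. Its TPM had a median of 1.14 and a maximum of 658 in FOS+ nuclei, against 0 and 95.7 in FOS- nuclei. It was detected in 20 of 40 FOS+, 8 of 41 FOS- and 0 of 23 HC nuclei, and only 1 FOS- nucleus reached the levels of the higher FOS+ nuclei, as the plot by nucleus shows. The difference was 1.96, and it lay between 1.53 and 2.40 in each condition. Over summed counts the levels were 116 and 6.30 CPM. The other 8 of 10 inward rectifier genes compared were not called.

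The leak channel gene *Kcnk1*, which led whole cells, was detected in 24 of 40 FOS+ and 14 of 41 FOS- nuclei. Its TPM had a median of 40.4 and a maximum of 2689 in FOS+, against a median of 0 and a maximum of 687 in FOS-. The means of 4.27 ± 4.04 and 1.95 ± 2.99 differed by 2.32, from 0.56 to 4.16 within conditions, and 6 of 23 HC nuclei had the gene. Many nuclei of both groups lacked it and the ranges overlapped. *Kcnk1* overlaps *Gm45875* on the opposite strand, and their reads cannot be told apart. The sign in all 4 conditions was lost without FOS+ replicate 13, when the difference was 2.19. *Kcnk9*, an acid-sensitive leak channel gene, stood the other way, in 2 FOS+ and 11 FOS- nuclei, with a difference of -1.08. That call was lost without any 1 of 4 FOS- nuclei (replicates 17, 18, 21 and 39), at -0.96 to -0.92.

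Silent subunits also went in both directions. *Kcnf1* was detected in 17 of 40 FOS+, 5 of 41 FOS- and 0 of 23 HC nuclei. Its means were 2.45 ± 3.31 and 0.60 ± 1.73, a difference of 1.86, and the median TPM was 0 in both groups, so the difference lay in a minority of nuclei. Its difference was 0.43 in the condition where it was smallest, and the sign there was lost without FOS+ replicate 16 (1.72 over all nuclei). *Kcng1* was detected in 4 FOS+ and 13 FOS- nuclei, with means of 0.50 ± 1.58 and 2.00 ± 3.23 and a difference of -1.50. It was below 0 within every condition, a sign that was lost without FOS- replicate 1 or 9, at -1.40 and -1.34. The other 3 silent subunit genes compared were not called.

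Of the voltage-gated pores, 2 of 3 Kv1 genes and 1 of 3 Kv3 genes compared were called higher in FOS+. *Kcna4*, an A-type Kv1 pore, was detected in 22 of 40 FOS+ and 16 of 41 FOS- nuclei, with a difference of 1.34 that was above 0 in every condition. *Kcna1* was widespread in both groups, in 32 FOS+ and 30 FOS- nuclei, with medians of 126 and 47.2 TPM. Its difference was 1.29, but it was -0.04 in the condition with 10 µM template-switching oligo (TSO) and ERCC spike-ins at 1:200. *Kcnc4*, an A-type Kv3 pore, was detected in 25 and 16 nuclei with a difference of 1.47, and stood at -0.51 in that same condition. The sign of *Kcna4* in every condition was lost without FOS+ replicate 29 or 31, when its overall difference was 1.25 in both cases.

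Of the M-current genes of the Kv7 family, *Kcnq5* was detected in 32 of 40 FOS+ and 23 of 41 FOS- nuclei, with median TPM values of 22.3 and 8.24. Its means were 4.07 ± 2.35 and 2.59 ± 2.52, and the difference of 1.48 was above 0 in every condition. Over summed counts the levels of *Kcnq5* were close, at 11.6 and 10.5 CPM with overlapping intervals (9.93 to 13.5 and 8.83 to 12.3). Its sign in all conditions was lost without FOS+ replicate 41 or FOS- replicate 39 or 40 (1.41 to 1.42). *Kcnq3* stood at 3.97 ± 1.58 and 4.56 ± 1.88 and was not called.

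Of 6 Kv auxiliary genes compared, *Kcnip2*, the KChIP partner of Kv4 pores, was called. It was detected in 20 of 40 FOS+ and 29 of 41 FOS- nuclei, with median TPM values of 1.17 and 92.2 and a difference of -1.75. The difference was -3.45 and -4.60 in 2 conditions and 0.36 and 0.64 in the other two. The sign thus differed between amplification conditions. None of the 2 Kv2, 3 Kv4, 2 EAG, 4 calcium- and sodium-activated and 2 BK auxiliary genes compared was called, nor any of 13 known channel partners outside the rule, such as *Dpp6*. The antisense transcript *Kcnmb4os1* was detected in 6 FOS+ nuclei and 0 FOS- nuclei, and *Kcnd3os* in 8 and 6. *Kcnmb4*, whose reads cannot be told apart from those of its antisense partners, was detected in 40 of 40 FOS+ and 34 of 41 FOS- nuclei.

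**Figure D3:**
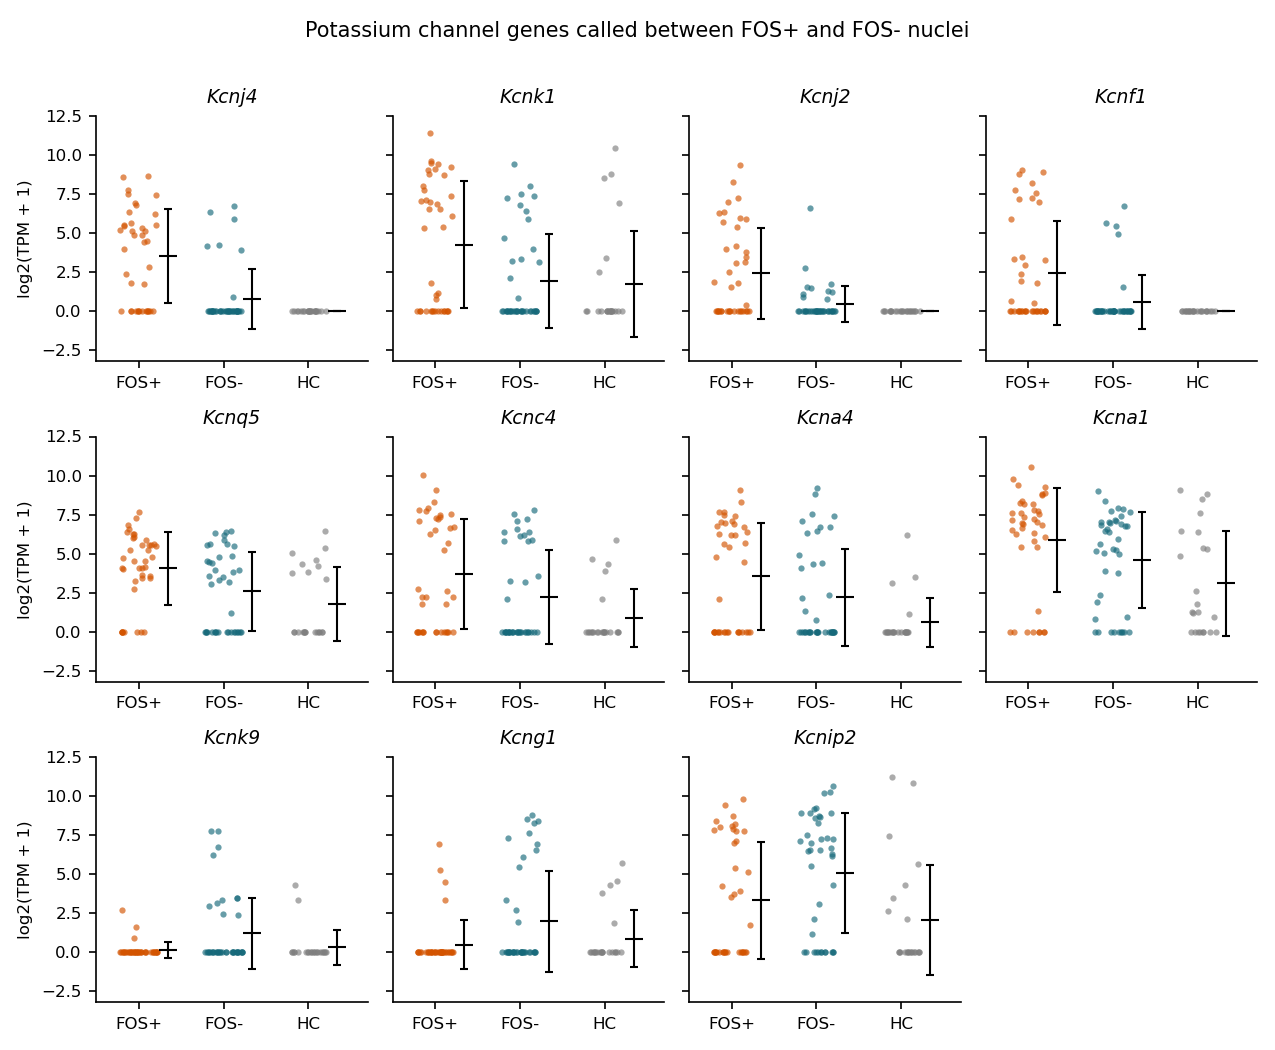
Each point is a nucleus and each panel a reported gene called between FOS+ and FOS- nuclei, with log2(TPM + 1) on the y axis and black bars for the mean and SD over nuclei; HC nuclei are from a separate table. Many nuclei sit at 0 in every panel, the FOS+ group of *Kcnj4* has 26 of 40 nuclei with the gene against 6 of 41 in FOS-, and the HC group is at 0 for *Kcnj4*, *Kcnj2* and *Kcnf1*.

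**Figure D4:**
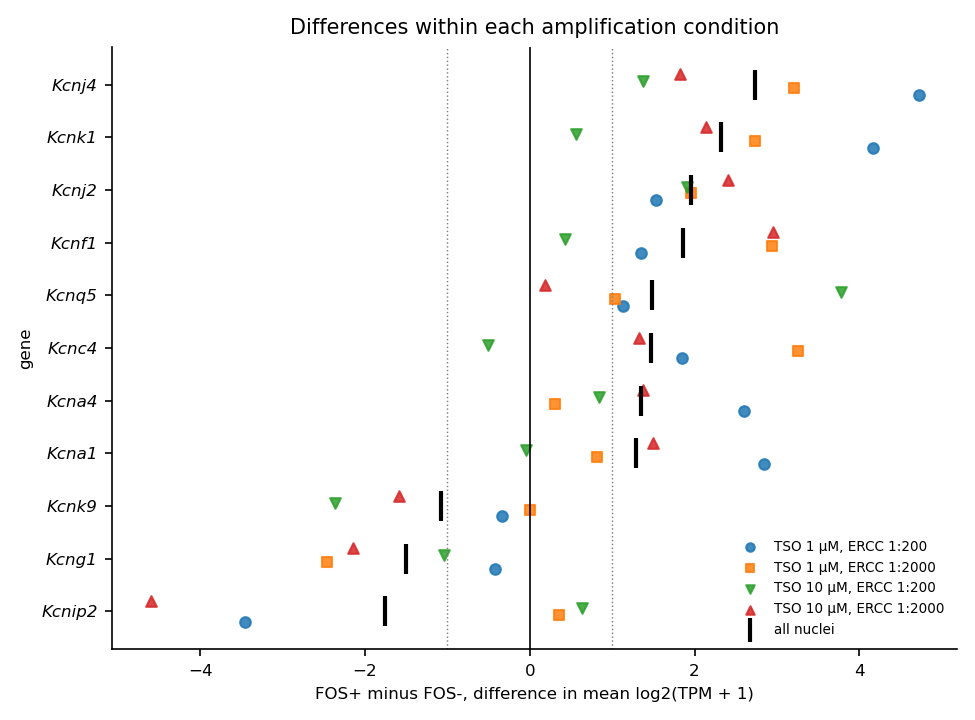
For each reported gene called, the x axis gives the difference in mean log2(TPM + 1), FOS+ minus FOS-, over all nuclei (black bar) and within each amplification condition (coloured symbols), with dotted lines at the size rule of 1. *Kcnj4* and *Kcnj2* lie above 1 in every condition, whereas *Kcnip2* runs from -4.60 to 0.64.

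The genes that were higher in every condition were also counted per nucleus. Of these 6 (*Kcna4*, *Kcnf1*, *Kcnj2*, *Kcnj4*, *Kcnk1* and *Kcnq5*), FOS+ nuclei held 3.53 ± 1.43 and FOS- nuclei 1.76 ± 1.09, which describes the genes that the call had chosen. At least 3 were detected in 32 of 40 FOS+, 10 of 41 FOS- and 1 of 23 HC nuclei. HC nuclei, which took no part in the call, held 0.826 ± 0.937, but with 3237 ± 371 detected genes they were also shallower, and they were made on another platform. Without the libraries that stood apart, 9 members were higher, with the 8 called over all nuclei among them, and the same 4 were lower, against 6.33% and 7.8% of all features.

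Promoters of 5 of these 6 genes, whose transcripts differed in the same direction in every condition, are shown. The sixth, *Kcnq5*, also had promoters in the reference, without a match to the motifs searched, and is not printed. Activity-dependent transcription is known to act through CREB, AP-1 and EGR factors. Each sequence, from RefSeq on GRCm38.p6, gives the 250 bases before the annotated start, 5′ to 3′ on the strand of the gene. Capitals mark a match to the EGR motif, which in *Kcna4* crosses the start, so that its window runs 8 bases past it. The regions are chr2:107290339-107290596 on the plus strand (*Kcna4*), chr12:17176889-17177138 on the minus strand (*Kcnf1*), chr11:111065914-111066163 on the plus strand (*Kcnj2*), chr15:79505242-79505491 on the minus strand (*Kcnj4*) and chr8:125994852-125995101 on the plus strand (*Kcnk1*).
Kcna4: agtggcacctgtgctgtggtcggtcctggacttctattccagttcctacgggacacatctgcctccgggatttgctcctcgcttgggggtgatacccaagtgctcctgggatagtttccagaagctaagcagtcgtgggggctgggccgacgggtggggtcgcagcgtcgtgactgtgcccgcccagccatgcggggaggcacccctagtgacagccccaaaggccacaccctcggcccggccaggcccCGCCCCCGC
Kcnf1: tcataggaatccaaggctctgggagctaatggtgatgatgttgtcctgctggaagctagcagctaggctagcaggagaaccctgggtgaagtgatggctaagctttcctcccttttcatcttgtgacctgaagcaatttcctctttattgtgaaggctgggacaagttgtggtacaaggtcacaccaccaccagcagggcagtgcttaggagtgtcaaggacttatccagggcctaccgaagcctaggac
Kcnj2: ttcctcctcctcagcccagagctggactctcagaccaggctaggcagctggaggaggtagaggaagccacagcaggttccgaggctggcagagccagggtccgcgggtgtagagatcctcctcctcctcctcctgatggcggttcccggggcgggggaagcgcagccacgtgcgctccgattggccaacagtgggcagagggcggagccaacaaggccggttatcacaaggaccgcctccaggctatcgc
Kcnj4: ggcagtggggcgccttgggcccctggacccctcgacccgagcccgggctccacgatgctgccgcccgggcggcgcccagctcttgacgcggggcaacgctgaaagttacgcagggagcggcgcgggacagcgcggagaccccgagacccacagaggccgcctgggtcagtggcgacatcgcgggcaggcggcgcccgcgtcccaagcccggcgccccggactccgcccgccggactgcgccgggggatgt
Kcnk1: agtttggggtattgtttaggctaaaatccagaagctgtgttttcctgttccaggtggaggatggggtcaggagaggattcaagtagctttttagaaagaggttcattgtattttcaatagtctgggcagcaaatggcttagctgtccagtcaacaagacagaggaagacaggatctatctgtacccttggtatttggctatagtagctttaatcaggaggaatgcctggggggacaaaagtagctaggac

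The motifs TGACGTCA (CREB), TGANTCA (AP-1) and GCGNGGGCG (EGR) were searched on both strands of windows of 300 bases, 250 before and 50 after the start. They occurred in 1.79%, 7.81% and 5.55% of 32851 mouse promoters and in 0%, 4.17% and 4.17% of the 96 promoters of 71 members. Of the 12 called genes, 8 had a promoter in the reference table, and the EGR match of *Kcna4* was the only match among them. The printed windows ranged in GC content from 44.4% in *Kcnk1* to 77.2% in *Kcnj4*. A match is a description of letters and not a binding site, and no match says only that these letters are not in the window.

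After PTZ, fewer whole cells held the G-protein-gated inward rectifier gene *Kcnj9*, the Kv1 beta subunit gene *Kcnab1* and the pore gene *Kcna1*. A larger share held *Kcnn2* and *Kcng2*, but *Kcnn2* was not called without the libraries that stood apart. Of 55 members compared, 2 were called higher (3.64%) and 6 lower (10.9%), against 4.09% and 8.47% of all 13748 features. The share called higher was no larger than that of all features, and the share called lower was close to it. The members leaned below 0, with 38 below and 17 above it and 30 within 0.5, at a median of -0.29 beside -0.06 for all features. The sample titles of saline cells end in a tag of their own, with the letters frz, and those of PTZ cells in another, so whatever these tags mark cannot be told apart from treatment. In these cells 4 of 6 activity markers were lower after PTZ and the medians of their summed TPM were 227 and 1589. Saline cells were thus not a group without activity transcripts. The paper reports that dissociating whole cells with papain brought on immediate early gene expression whatever the treatment, which was not tested here. Of the 8 granule neuron markers, 3 were lower after PTZ, at a median difference of -0.80, and of 2 pyramidal neuron markers 1 was higher. Their part in the differences of channel genes was not tested.

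The libraries that stood apart bear on this comparison. Without the 6 PTZ cells and 1 saline cell among them, 1 member was called higher and 12 lower, with 2.64% and 16.1% of all features and a median of all features of -0.27. Then *Kcnn2* fell short of the size rule at 0.65, *Kcng2* stood at 1.02, and the 6 genes called lower kept their calls, with *Kcna4*, *Kcnd2*, *Kcnip4*, *Kcnj2*, *Kcnj4* and *Kcnv1* added.

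*Kcnj9* had the largest difference of the members compared. Its TPM ran from 0 through a median of 8.30 to 322 in PTZ cells and from 0 through a median of 102 to 532 in saline cells, and the groups overlapped. It was detected in 17 of 30 PTZ and 31 of 38 saline cells, with means of 3.09 ± 3.03 and 5.39 ± 2.89 and a difference of -2.31. Over summed counts the levels were 75.6 and 197 CPM. *Kcnj9* lies at chr1:172320501-172329318 on the minus strand (GRCm38) and overlaps *Gm36937* on the opposite strand. Its partners in G-protein-gated channels were not called, with means of 4.96 and 5.31 for *Kcnj3* and 3.78 and 3.47 for *Kcnj6*.

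*Kcnab1* and *Kcna1*, a beta subunit and a pore of Kv1 channels, were both lower after PTZ. *Kcnab1* was detected in 16 of 30 PTZ and 31 of 38 saline cells, with medians of 14.4 and 95.7 TPM, and its difference was -2.28. *Kcna1* was detected in 20 and 35 cells, with means of 3.61 ± 2.84 and 5.25 ± 1.83 and a difference of -1.65. In both genes a larger part of the PTZ cells was at 0. *Kcnab2*, the other abundant beta subunit gene, stood at 5.08 ± 2.96 and 5.50 ± 2.71 and was not called.

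The other genes called lower were *Kcng1*, a silent subunit, with a difference of -1.37 (15 of 30 PTZ and 25 of 38 saline cells), the Kv3 pore *Kcnc4* at -1.22 (14 and 25 cells) and the EAG-family pore *Kcnh7* at -1.08 (8 and 17 cells). *Kcnh7* lost its call without any 1 of 7 saline cells (replicates 2, 9, 18, 29, 32, 34 and 45), at -0.98 to -0.94. Summed counts of *Kcnc4* were close, at 89.3 and 96.8 CPM. Just outside the rule, the Kv4 pore *Kcnd2* stood at -0.90 and its partner *Kcnip4* at -0.93.

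*Kcnn2*, the pore of a small-conductance calcium-activated channel, was called higher after PTZ. It was detected in 16 of 30 PTZ and 12 of 38 saline cells, with medians of 11.5 and 0 TPM and a difference of 1.35, and 53.3% of its PTZ counts came from a single cell. Its highest TPM values, 557 and 554, were in PTZ replicates 22 and 20. In these cells the summed TPM of astrocyte or pyramidal neuron markers was above that of granule neuron markers. *Kcng2*, a silent subunit, was detected in 14 PTZ and 8 saline cells with a difference of 1.25. The median of *Kcng2* was 0 in both groups. *Kcne1l*, a KCNE-family gene at 0.99, was detected in 5 PTZ cells and no saline cell. None of the 2 Kv2, 3 Kv4, 3 Kv7, 1 BK auxiliary and 5 two-pore genes compared was called, nor any of 12 partners outside the rule.

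**Figure D5:**
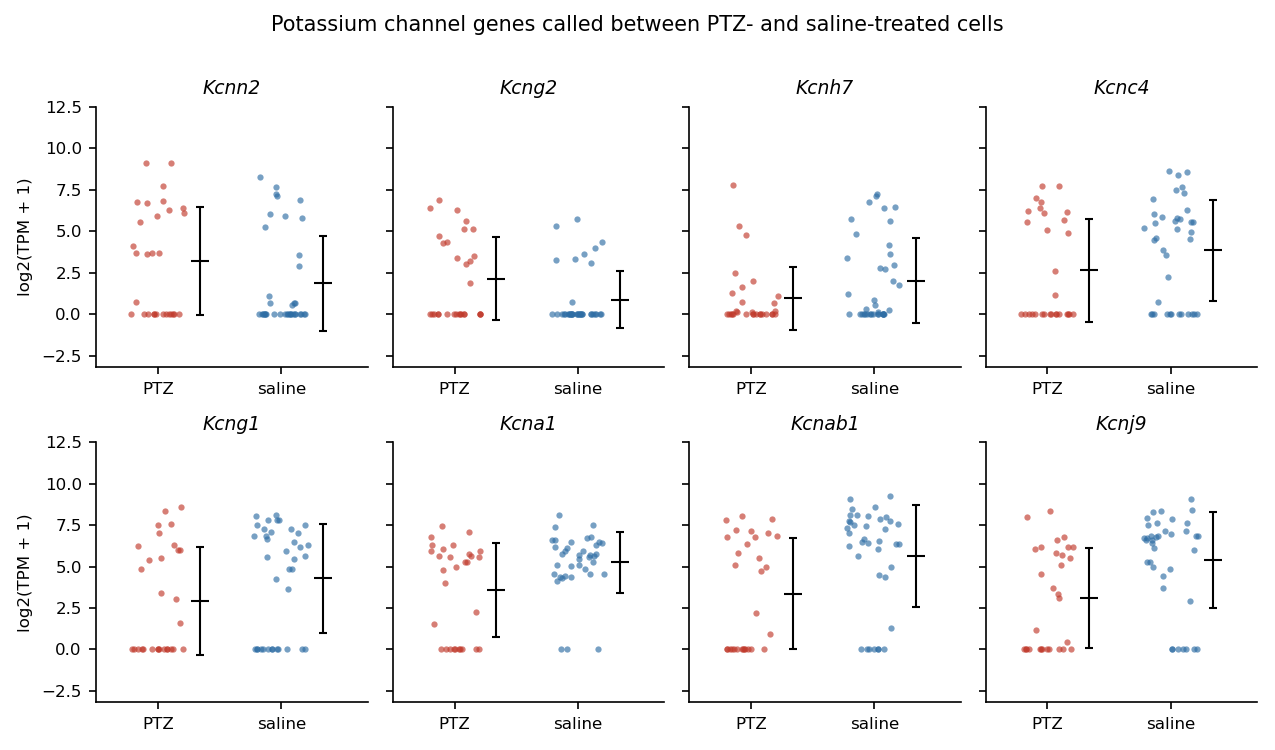
Each point is a whole cell and each panel a gene called between PTZ and saline cells, with log2(TPM + 1) on the y axis and black bars for the mean and SD over cells. The groups overlap in every panel, and for *Kcnj9* 17 of 30 PTZ cells hold the gene against 31 of 38 saline cells.

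The comparisons shared 3 called genes, which is 25% of the 12 called between FOS+ and FOS- and 37.5% of the 8 called between PTZ and saline. Over all features, 389 were called in both, 17.1% of 2269 and 22.5% of 1727. *Kcng1* was lower in FOS+ nuclei and in PTZ cells. *Kcna1* and *Kcnc4* were higher in FOS+ nuclei and lower in PTZ cells. The comparisons share no cells, but they differ in stimulus, preparation and mouse strain, and the difference between them was not tested. Over all cells kept, the genes most different between FOS+ and FOS- were not called between PTZ and saline. Mean log2(TPM + 1) values in PTZ and saline cells were 1.87 and 2.73 for *Kcnj4*, 0.58 and 1.39 for *Kcnj2*, and 7.02 and 7.16 for *Kcnk1*. Without the libraries that stood apart, *Kcnj4* and *Kcnj2* were called lower after PTZ, opposite to their direction in FOS+ nuclei.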

How the data were processed

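Single whole DGCs and NE nuclei were amplified by the authors with Smart-seq2 and HC nuclei on the Fluidigm C1. By the methods, NE libraries were read from 1 end and the others from both ends, which can shift levels between tables. The authors trimmed the reads and estimated expression with RSEM and Bowtie 1.0.0 on mm10 (GRCm38) with the Ensembl annotation. Each deposited table holds the expected counts or the TPM values of all cells of a set. An expected count, as deposited, is an unnormalized RSEM estimate of how many reads a gene received, and shared reads give it decimals. A TPM, also deposited by the authors as a linear value, scales that estimate by transcript length and by the cell's total.

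Whole cells and NE nuclei were kept with a total expected count over 50000 and more genes above a TPM of 1 than the mean minus 2 SD of their table. The methods count uniquely aligned reads for the first criterion, for which the total expected count stood in, and their spike-in criterion was not applied. The HC table was used whole. No columns were identical and 0 columns belonged to no sample. The depth of a library limits detection, so absence means not detected at that depth.

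Levels are means of log2(TPM + 1), a scale on which the differences of low genes are understated. The methods test cells as replicates with edgeR, which was not done here because cells of 1 animal or pool are not replicates. Differences of at least 1 on that scale were called instead, among genes above a TPM of 1 in at least 5 cells of both groups together. Shares have exact Clopper-Pearson 95% intervals and summed counts exact Poisson intervals. Both cover counting error only. The protocol has no molecular identifiers, so the Poisson intervals treat amplified reads as independent counts and are too narrow for numbers of transcripts. Python 3.11.15, pandas 2.3.3, numpy 2.4.6, scipy 1.17.1 and matplotlib 3.10.9 were used, and for TMM factors R 4.3.3 with edgeR 4.0.16 on rounded counts. The scripts were tested on simulated data. The alternatives tried were other pseudocounts, filters, scalings, depths, detection limits and size rules, all cells of the tables, and each cell left out in turn.

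Named are the 15 members with the highest mean level in whole cells and in NE nuclei, at most 10 members called per comparison and direction, members never detected, *Kcng3* and the antisense transcripts, and partners where called. Other genes were named after their values were seen. Some genes that meet this rule are not reported here, though counts of members include them. The members and lists were chosen with earlier results of these data known. Genes were placed by the GENCODE M21 annotation of GRCm38, in which 98 of 98 members matched by symbol. Genes that share sequence are uncertain, since RSEM divides their reads, and genes that overlap on either strand cannot be told apart.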

Additional observations from a re-analysis of the deposited data

How the results depend on the processing

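No paired analysis was possible because the results come from no test and a cell's number ties it to no animal. The 11 reported differences between FOS+ and FOS- kept their sign in 132 of 132 values under 12 alternatives. The 8 between PTZ and saline kept theirs in 88 of 88 under 11. Part of this was fixed in advance. Changes of the filter left these differences as they were, and subtracting the small median of all features could not reverse them. Only *Kcnip2*, *Kcnj4* and *Kcnk1* in the first comparison and *Kcnj9* in the second stayed at or above a size of 1 in all alternatives. Values within single amplification conditions were not among these alternatives, and there the sign of *Kcnip2* differed. With a pseudocount of 0.1, 13 members were higher and 6 lower in FOS+ (11.3% and 15.9% of all features), and 5 higher and 14 lower after PTZ (11.4% and 17%). With a pseudocount of 10, 3 were higher and 2 lower in FOS+ (3 and 1 in all 4 conditions), and 0 higher and 2 lower after PTZ, against 2.17% and 1.62% of all features in FOS+ and 0.313% and 1.42% after PTZ. Over summed counts, 15 were higher and 12 lower in FOS+ (17.8% and 27.9% of all features), and 6 and 10 after PTZ (12.4% and 12.9%). A size rule of 2 left 2 higher and 0 lower in FOS+ (2 and 0 in all 4 conditions) and 0 higher and 2 lower after PTZ, against 1.42% and 0.769% of all features, and 0.167% and 0.582%. With all cells of the table, 3 were lower after PTZ (3.53%). Without the cells that stood apart, chosen after the data were seen, 1 was higher and 12 lower after PTZ (2.64% and 16.1%).

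Detection depended on depth and limit. In at least 50% of NE nuclei there were 13 genes at a TPM above 5, 10 at a count of at least 5 and 11 at 50000 counts per nucleus, and in HC nuclei 3, 2 and 5. At a count of at least 5, FOS+ nuclei held 16.3, FOS- 13.9 and HC 5.96 subunit genes, and HC nuclei held 7.87 at a TPM above 5.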

Other observations

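Several potassium channel genes were listed in most libraries of one table and few of another. These genes were named after their values were seen, and the tables were made separately and differ in preparation, amplification platform, mouse strain and depth, so the values stand side by side. *Kcnk6*, a gene of the two-pore family, was detected in 59 of 81 NE nuclei (72.8%, exact 95% interval 61.8 to 82.1%), in 1 of 68 whole cells and in 1 of 23 HC nuclei. The BK beta subunit gene *Kcnmb1* was detected in 58 NE nuclei, 6 HC nuclei and 0 whole cells (upper limit 5.28%). It lies within *Kcnip1* on the opposite strand, and their reads cannot be told apart. *Kcnj5*, a G-protein-gated inward rectifier gene, was detected in 35 NE nuclei, 1 HC nucleus and 0 whole cells, with a highest TPM of 9.03 in FOS+ nuclei. Levels of these genes were low, with median TPM values in FOS+ nuclei of 4.49 for *Kcnk6*, 2.56 for *Kcnmb1* and 0.955 for *Kcnj5*. In FOS+ and FOS- nuclei, *Kcnk6* was detected in 29 of 40 and 30 of 41, *Kcnmb1* in 27 and 31, and *Kcnj5* in 20 and 15, and none was called.

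The reverse was seen for the silent subunit gene *Kcnv1*, detected in 31 of 68 whole cells (45.6%, 33.5 to 58.1%) and in 4 of 81 NE nuclei, and for the EAG-family gene *Kcnh3*, detected in 25 whole cells, 4 NE nuclei and 0 HC nuclei. *Kcnk1* was detected in 64 whole cells, 38 NE nuclei and 6 HC nuclei. Whether these differences come with the compartment, the preparation or the processing of each table was not tested.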
